A study of Mus musculus with 6 samples.

Results

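The 35 genes described here encode the Polycomb machinery that places and removes the silencing marks on histone H3 lysine 27 and histone H2A: the core and accessory subunits of Polycomb repressive complex 2 (PRC2), the subunits of canonical and variant Polycomb repressive complex 1 (PRC1), the H3K27 demethylases, and the H2A deubiquitinase complex. They were taken by gene symbol, as a list of named subunits, from the 55573 gene identifiers counted by RNA-Seq, and all 35 were among the 20241 genes with enough reads to be tested. Adult C57BL/6J mice received an adeno-associated virus of serotype 2 (AAV2) in the vitreous body, carrying either *GFP* (control group, 3 libraries) or *Ezh2* (*Ezh2* overexpression group, 3 libraries). The optic nerve was crushed 2 weeks later, and live cells that carried the *Thy1* product CD90.2 on their surface were sorted from dissociated retinas 3 days after the crush to enrich retinal ganglion cells (RGCs). All mice of both groups therefore had an AAV2 injection and a crush, and no library from uninjured or uninjected mice was analysed here. The mice of the study were of both sexes unless stated otherwise, and the number and sex of the mice behind each library, as well as the promoter that drives the transgene, are not given in the sources used here.

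Gene silencing by Polycomb works through a pair of linked histone marks. PRC2 methylates lysine 27 of histone H3 through its catalytic subunit, Ezh2 or Ezh1, which needs Eed and Suz12 to be active, while PRC1 uses the RING proteins Ring1 and Rnf2 to add ubiquitin to histone H2A and reads the methyl mark through its CBX proteins. Kdm6a (Utx) and Kdm6b (Jmjd3) remove the methyl groups, and the Bap1 complex removes the ubiquitin. In the nervous system *Ezh2* is known as the subunit of dividing progenitors, whereas *Ezh1* is the one that persists in mature neurons.

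Library depth ran from 30569933 to 35971192 counted reads, so that the limit set by a count of 0 (3 counts) lay between 0.0834 and 0.0981 CPM, the count of a gene scaled to a common library total, and the lowest count of any Polycomb gene in any library was 83. These limits cover counting error only. One library stood apart: Ezh2 replicate 3 correlated with Ezh2 replicates 1 and 2 at 0.973 and 0.972 across genes on the log2 CPM scale, against 0.986 between those replicates and 0.982 to 0.985 among the GFP libraries. The study left 1 *Ezh2* overexpression library out of its comparison, and the 5 libraries it displays are all but Ezh2 replicate 3. Differences between the groups are therefore given for 5 libraries (3 GFP and Ezh2 replicates 1 and 2), with the values for all 6 libraries beside them. The labels do not say that the libraries came from separate mice, so that the p-values measure only the spread between these libraries.

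The label of the sorted cells as RGCs was only partly borne out by their defining genes. The RGC transcription factors *Pou4f1*, *Pou4f2* and *Pou4f3* were at or near 0, with 0 to 3 counts of *Pou4f2*, 2 to 13 of *Pou4f3* and 0 to 19 of *Pou4f1* per library. The 12 RGC markers summed to between 145.1 and 148.6 CPM in the GFP libraries, 168.6 to 182.3 in Ezh2 replicates 1 and 2 and 184.0 in Ezh2 replicate 3, and 4 of the 10 tested rose in the 5 libraries. Most of this sum was *Thy1*, the gene of the sorted antigen, at 92.6, 87.2 and 90.3 CPM (GFP) and 108.8, 98.9 and 113.8 (Ezh2). *Thy1* was also among the 4 that rose, so that neither the sum nor the count measures RGC content alone. The others were *Nefl*, *Nefh* and *Tubb3*, with log2 fold changes of 0.56 ± 0.12, 0.72 ± 0.23 and 0.71 ± 0.15. These also had an edgeR adjusted p under 0.05 in the 6 libraries, where *Thy1* did not (0.0734). Of the 10 tested, 6 did not pass in the 5 libraries. In contrast, 6 Müller glia markers summed to between 18515 and 19183 CPM in the GFP libraries and 14671 to 15119 in Ezh2 replicates 1 and 2, and 5 of the 6 fell there. A lower count in these sorted populations may stand for fewer cells of a type or for less RNA per cell, which cannot be told apart here, and this holds for every Polycomb gene below.

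In the control group every Polycomb gene was measured well above the detection limit. Per kilobase of merged exon, the highest mean level was that of *Rbbp7* (42.3 ± 1.31 CPM per kb, SD, n = 3), which encodes a histone-binding subunit shared by PRC2 and other chromatin complexes. By this length it was followed by *Bap1* (19.2 ± 0.616), the catalytic H2A deubiquitinase, *Rbbp4* (17.8 ± 0.429) and *Kdm6a* (16.0 ± 0.331). The order depends on the gene model. *Rbbp4* has 8744 bases of merged exon but 4663 in its longest transcript, against 4682 and 3855 for *Bap1*. The SDs do not cover this, and the order by longest transcript was not computed. Neighbours further down this order, such as *Cbx6* (15.6 ± 0.417) and *Asxl1* (15.5 ± 1.09), did not differ beyond their spread. The lowest levels per kb were those of *Phf19* (0.583 ± 0.0794), a PRC2 accessory subunit that binds methylated H3 lysine 36, *Asxl3* (0.634 ± 0.00930) and *Cbx2* (1.57 ± 0.208).

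**Figure D1:**
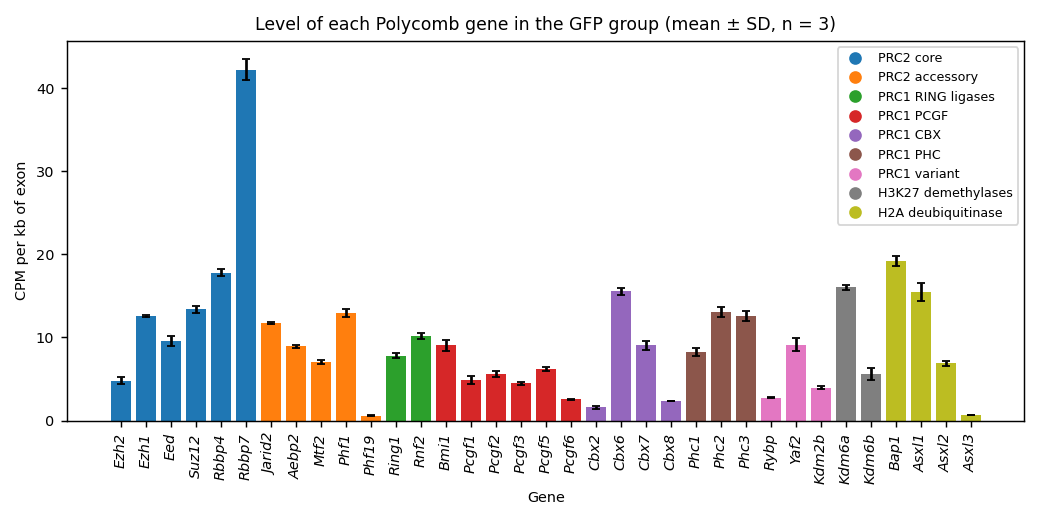
Mean level of each of the 35 Polycomb genes in the 3 GFP libraries, in CPM per kb of merged exon (bars, with SD), coloured by role. *Rbbp7* stands highest at 42.3 CPM per kb, and *Phf19* and *Asxl3* lie under 1.

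*Ezh2*, the targeted gene (chr6:47530139-47595341, minus strand, GRCm38), had 28.8, 34.6 and 33.0 CPM in the GFP libraries and 78.0, 65.3 and 104.8 CPM in Ezh2 replicates 1, 2 and 3. The groups did not overlap, and each library labelled *Ezh2* overexpression lay above each control library. In the 5 libraries *Ezh2* rose by 1.17 ± 0.08 on the log2 scale (SE), which is 2.25-fold (edgeR quasi-likelihood test, Benjamini-Hochberg adjusted p = 2.97e-11), and in the 6 libraries by 1.41 ± 0.19 (adjusted p = 0.0122). The call in the 6 libraries was lost without GFP replicate 1, 2 or 3, with adjusted p of 0.0793, 0.0616 and 0.0877. Reads from the AAV insert and from the endogenous gene cannot be told apart under this identifier. Markers of dividing cells and of T cells also rose in the 5 libraries and had their highest sums in Ezh2 replicate 3 (values below). Their part in the level of *Ezh2* was not tested.

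The 5 other core subunits of PRC2 did not pass the test in either fit. Of all tested genes, 17.8% had an edgeR adjusted p under 0.05 in the 5 libraries and 5.78% in the 6. The alternative methyltransferase *Ezh1* had 93.0, 94.2 and 94.7 CPM in the GFP libraries and 92.0, 89.3 and 81.3 in the Ezh2 libraries, a non-overlapping but small difference (log2 fold change -0.04 ± 0.06, edgeR adjusted p = 0.680). *Eed*, whose product binds the methyl mark and stimulates the enzyme, had 36.4, 39.0 and 34.7 CPM against 37.4, 40.7 and 80.5. *Suz12*, the scaffold of the complex, had 68.0, 66.9 and 63.8 CPM against 61.6, 65.7 and 93.0. For both genes Ezh2 replicates 1 and 2 overlapped the control libraries, whereas Ezh2 replicate 3 lay above all others. Their log2 fold changes were 0.10 ± 0.08 and -0.05 ± 0.06 in the 5 libraries (edgeR adjusted p = 0.428 and 0.702) and 0.58 ± 0.34 and 0.20 ± 0.17 in the 6 (adjusted p = 0.348 and 0.507). The histone chaperone *Rbbp4* had 160.2, 154.0 and 153.4 CPM against 164.0, 167.3 and 150.8, and its relative *Rbbp7* had 124.2, 118.7 and 126.0 against 116.9, 123.2 and 133.6. *Rbbp4* was higher in Ezh2 replicates 1 and 2 than in every control library but lower than all of them in Ezh2 replicate 3, and *Rbbp7* overlapped between the groups. Neither passed the test (log2 fold change 0.10 ± 0.05 and -0.02 ± 0.05, edgeR adjusted p = 0.197 and 0.828).

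**Figure D2:**
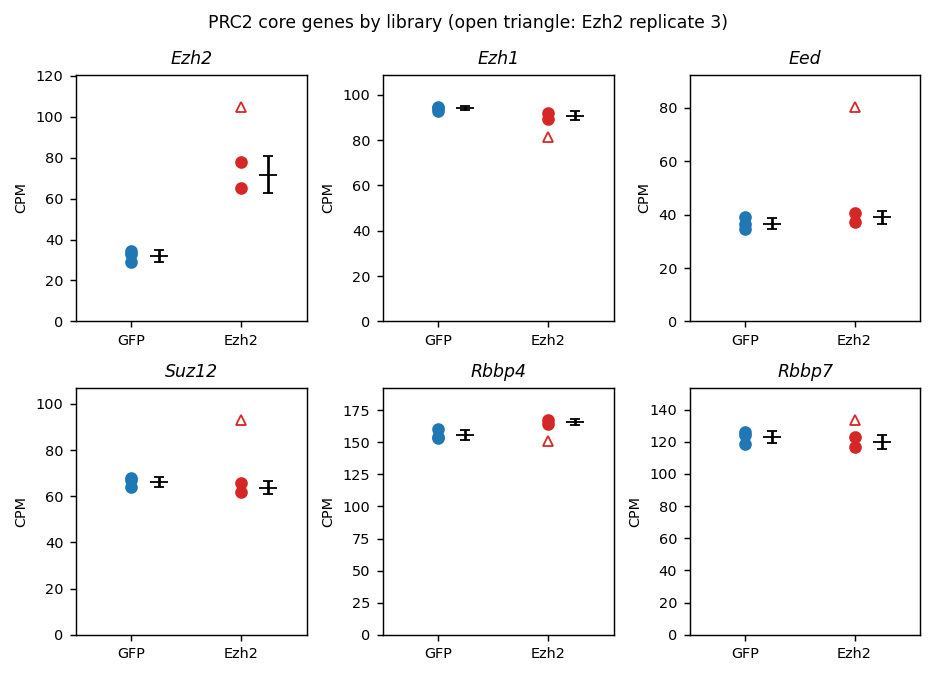
CPM of the 6 PRC2 core genes in each library, with GFP libraries in blue, Ezh2 libraries in red and Ezh2 replicate 3 as an open triangle; bars give the mean ± SD of the 3 GFP libraries and of Ezh2 replicates 1 and 2. *Ezh2* is higher in all 3 Ezh2 libraries, while *Eed* and *Suz12* are high only in Ezh2 replicate 3.

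The share of PRC2 methyltransferase reads that came from *Ezh2* was larger in every Ezh2 library than in every control library. Counted per kb of merged exon, *Ezh2* made up 25.6%, 29.0% and 28.0% of the summed *Ezh2* and *Ezh1* reads in the GFP libraries (27.5% ± 1.72, SD, n = 3). In the Ezh2 libraries it made up 48.6%, 44.9% and 58.9% (46.7% ± 2.60 for replicates 1 and 2). With the longest transcript as the length, the means were 34.0% and 54.3%, so that the level of the share depends on the gene model more than its direction does. Reads of the AAV insert count as *Ezh2* here and are scaled by the length of the endogenous gene. With *Ezh1* nearly unchanged, the larger share restates the rise of *Ezh2* itself. In the RING ligase pair the difference was smaller than the spread between Ezh2 replicates 1 and 2, with *Rnf2* at 56.5% ± 1.39 of *Rnf2* and *Ring1* in the control group and 59.1% ± 4.88 in Ezh2 replicates 1 and 2.

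To show the regulatory sequence of these genes, the promoters of the Polycomb genes were searched for the binding letters of the E2F factors, which drive genes of DNA replication and the cell cycle, because markers of dividing cells also rose in these libraries, a choice made after those values were seen. Of 15 cell cycle genes 10 rose in the 5 libraries, and their summed level was 365.1 to 395.9 CPM in the GFP libraries, 461.1 to 510.1 in Ezh2 replicates 1 and 2 and 792.4 in Ezh2 replicate 3. In the 6 libraries 0 of the 15 had an edgeR adjusted p under 0.05, and 9 an unadjusted one. RefSeq promoters (GRCm38.p6, 300 bases from 250 before to 50 after a transcription start) were matched for 29 of the 35 genes, giving 40 promoters; *Pcgf1*, *Kdm6b*, *Rybp*, *Asxl3*, *Yaf2* and *Cbx2* had no entry. The strings TTTCCCGC, TTTCGCGC, TTTGCCGC and TTTGGCGC, on either strand, occurred in 3 of the 40 (7.50%) and in 2.26% of all 32851 promoters. These were the promoters of *Ezh2*, *Suz12* and *Phf19*, printed here from 250 bases before to 30 after the start on the strand of the gene, with the match in capitals. The match begins 4 bases after the start in *Ezh2* (chr6:47595001-47595280, minus strand), 219 bases before it in *Suz12* (chr11:79992856-79993135, plus strand) and 208 before it in *Phf19* (chr2:34913947-34914226, minus strand, where the capitals are the reverse complement).
Ezh2: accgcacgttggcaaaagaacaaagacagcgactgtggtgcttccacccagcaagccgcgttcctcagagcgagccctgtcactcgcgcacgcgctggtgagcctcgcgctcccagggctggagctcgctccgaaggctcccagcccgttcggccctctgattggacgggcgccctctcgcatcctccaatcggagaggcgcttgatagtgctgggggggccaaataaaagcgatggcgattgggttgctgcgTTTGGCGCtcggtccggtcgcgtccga
Suz12: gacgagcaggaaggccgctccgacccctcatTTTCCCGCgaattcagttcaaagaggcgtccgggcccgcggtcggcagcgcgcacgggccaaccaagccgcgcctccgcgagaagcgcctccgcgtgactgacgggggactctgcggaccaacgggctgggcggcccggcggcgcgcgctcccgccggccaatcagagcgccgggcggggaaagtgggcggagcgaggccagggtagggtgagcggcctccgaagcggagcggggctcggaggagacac
Phf19: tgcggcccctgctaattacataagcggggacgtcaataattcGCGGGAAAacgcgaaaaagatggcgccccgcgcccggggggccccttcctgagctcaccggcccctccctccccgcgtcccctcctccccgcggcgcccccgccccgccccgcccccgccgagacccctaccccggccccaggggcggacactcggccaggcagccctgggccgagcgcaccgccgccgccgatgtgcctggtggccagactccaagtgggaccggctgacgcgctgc
The promoters of the group were also rich in CpG, with a median of 24 CpG per promoter (2 to 50) against 7 over all promoters, of which 18.4% had more than 24. Each of the searched strings itself contains a CpG, and the shares of promoters with a match were not compared at equal CpG. The printed *Ezh2* promoter is that of the endogenous gene, while the promoter of the AAV insert is not given in the sources used here. A match describes the letters in this window and no binding was measured.

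*Ezh2* was the only 1 of the 35 Polycomb genes that passed the combined rule in the 5 libraries (over 1.5-fold, with an edgeR adjusted p under 0.05), where 3.8% of all tested genes did. At an adjusted p under 0.05 without a fold limit, 4 of 35 (11.4%) passed, against 17.8% of all tested genes. Of these, *Ezh2* and *Asxl3* rose (background 10.1%), and *Kdm6a* and *Pcgf5* fell (background 7.68%). With all 6 libraries *Ezh2* alone passed, under either rule, where 2.52% of all genes passed with the fold limit and 5.78% without it. The 2 groups did not overlap for 11 of 35 genes (31.4%) in the 5 libraries and for 6 of 35 (17.1%) in the 6, against 44.9% and 34.2% of all tested genes. A single gene is 2.86% of the 35, so that these shares lay near or below those of all genes. The virus carried *Ezh2* itself, so that the call of this gene was fixed by the design. Of the 34 other genes, 0 passed the combined rule in either fit. Without the fold limit, 1 of them rose and 2 fell in the 5 libraries, and 0 passed in the 6. Their groups did not overlap for 10 genes in the 5 libraries and for 5 in the 6. The median log2 fold change of the 35 genes was -0.03 in the 5 libraries and 0.06 in the 6, against -0.0078 and 0.0083 over all genes.

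**Figure D3:**
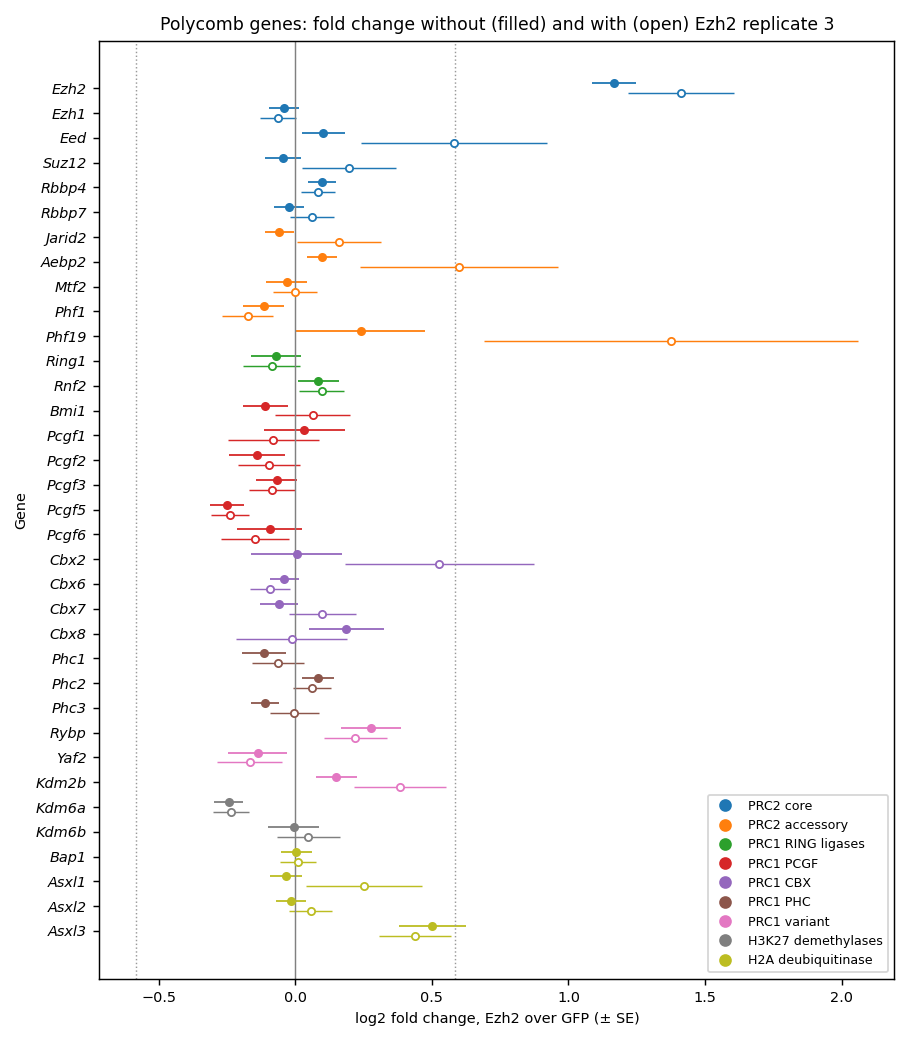
Log2 fold change of each Polycomb gene, *Ezh2* overexpression over control, with SE, in the 5 libraries (filled) and with Ezh2 replicate 3 added (open); dotted lines mark 1.5-fold. *Ezh2* lies at 1.17 and 1.41, *Kdm6a* and *Pcgf5* at about the same negative value in both fits, and *Phf19*, *Aebp2*, *Eed* and *Cbx2* move to the right with wide errors once Ezh2 replicate 3 is added.

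Of the PRC2 accessory subunits, which guide the complex to chromatin, 0 of 5 passed the test in either fit. Of all tested genes, 17.8% passed it in the 5 libraries and 5.78% in the 6 (edgeR adjusted p under 0.05). The log2 fold changes ran from -0.11 to 0.24 in the 5 libraries. An unadjusted p under 0.05 was found for 0 of 5 in either fit, and a DESeq2 adjusted p under 0.05 for 0 of 5 in the 5 libraries. *Jarid2* and *Aebp2*, which form one type of PRC2, had log2 fold changes of -0.06 ± 0.05 and 0.10 ± 0.06. The Polycomb-like subunits *Mtf2*, *Phf1* and *Phf19*, which form the other type, had -0.03 ± 0.08, -0.11 ± 0.07 and 0.24 ± 0.24. The wide error of *Phf19* goes with its low level, at 2.701 to 3.82 CPM in the 5 libraries.

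Among the 18 PRC1 genes 1 passed the test in the 5 libraries and 0 in the 6, where 17.8% and 5.78% of all tested genes did. *Pcgf5* (chr19:36348309-36460970, plus strand), which encodes a RING partner of variant PRC1, had 81.1, 75.3 and 77.9 CPM in the GFP libraries and 65.4, 64.9 and 63.0 in the Ezh2 libraries. All 3 Ezh2 libraries lay below all 3 control libraries. It fell by 0.25 ± 0.06 on the log2 scale (edgeR adjusted p = 0.00342), and its log2 fold change of -0.24 ± 0.07 in the 6 libraries did not pass the test (adjusted p = 0.0804). An exon of *F530104D19Rik* lies antisense to *Pcgf5*, and the strand setting of the counting is not given in the sources used here.

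The other 5 PCGF genes had log2 fold changes from -0.14 to 0.03, including *Bmi1* (-0.11 ± 0.08), the partner in canonical PRC1 for which the family is best known. The RING ligases *Ring1* and *Rnf2*, on which H2A ubiquitination depends, had -0.07 ± 0.09 and 0.08 ± 0.08. The CBX readers *Cbx2*, *Cbx6*, *Cbx7* and *Cbx8* ranged from -0.06 to 0.19, and the PHC genes *Phc1*, *Phc2* and *Phc3*, whose products join PRC1 units into larger assemblies, from -0.12 to 0.08. Of the variant PRC1 genes, *Rybp* (0.28 ± 0.11) had an unadjusted p of 0.0166 and missed the threshold after adjustment (edgeR adjusted p = 0.0781), as did *Phc3* (-0.11 ± 0.05, unadjusted p = 0.0414, adjusted p = 0.150). The *Rybp* relative *Yaf2* had -0.14 ± 0.11 and *Kdm2b*, which takes variant PRC1 to CpG islands, 0.15 ± 0.07.

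*Kdm6a*, the X-linked H3K27 demethylase (chrX:18162575-18279936, plus strand), had 131.9, 134.1 and 137.4 CPM in the GFP libraries and 118.0, 107.3 and 108.1 in the Ezh2 libraries. The groups did not overlap, and the difference was larger than the spread within either. It fell by 15.6% in the 5 libraries (log2 fold change -0.24 ± 0.05, edgeR adjusted p = 0.00127), and its log2 fold change of -0.24 ± 0.06 in the 6 did not pass the test (adjusted p = 0.0678). The other demethylase, *Kdm6b*, had a log2 fold change of -0.01 ± 0.09 and overlapped between the groups. Per kb, *Kdm6a* made up 74.1% ± 2.10 of the reads of both demethylases in the control group and 70.7% ± 0.973 in Ezh2 replicates 1 and 2.

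Sex-linked genes also differed between the groups, *Xist* in the direction of *Kdm6a* and the 4 Y-linked genes in the opposite one. *Xist*, the RNA that coats the inactive X chromosome, had 635.1, 742.9 and 762.7 CPM in the GFP libraries and 382.3, 347.4 and 365.3 in the Ezh2 libraries, and fell by 0.96 ± 0.07 on the log2 scale. The Y-linked *Ddx3y* had 29.8, 31.5 and 29.4 CPM against 42.9, 51.7 and 51.5, and rose by 0.66 ± 0.08. *Uty*, the Y-linked relative of *Kdm6a*, had 32.4, 35.6 and 33.5 CPM against 38.4, 40.6 and 60.6, and rose by 0.24 ± 0.08 (edgeR adjusted p = 0.0343). *Kdm5d* and *Eif2s3y* rose as well, by 0.26 ± 0.07 and 0.22 ± 0.08, so that 5 of 5 sex-linked genes changed, *Xist* down and 4 Y-linked genes up, of which *Xist* and *Ddx3y* also passed in the 6 libraries. The share of male and female cells and the treatment cannot be told apart for *Kdm6a*, and the part of the sex-linked genes in its change was not tested. *Rbbp7*, the other X-linked Polycomb gene, did not pass the test. Of the X-linked genes among the Polycomb partners described below, *Ogt* fell in the 5 libraries (log2 fold change -0.17 ± 0.05, edgeR adjusted p = 0.0112). It did not pass in the 6 (-0.12 ± 0.07, adjusted p = 0.297). *Scml2* (-0.24 ± 0.23), *Bcorl1* (-0.20 ± 0.08), *Bcor* (0.11 ± 0.06) and *Hcfc1* (0.11 ± 0.05) did not pass in either fit.

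**Figure D4:**
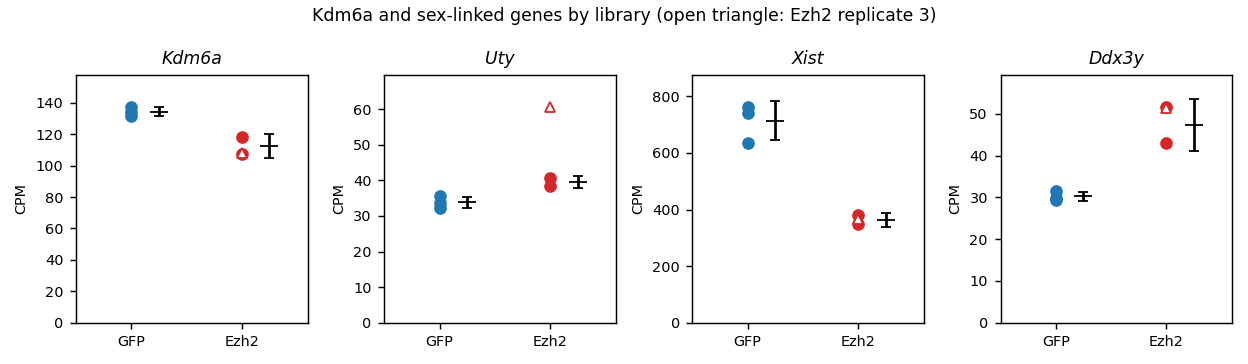
CPM of *Kdm6a*, its Y-linked relative *Uty*, *Xist* and *Ddx3y* in each library, with the GFP libraries in blue, the Ezh2 libraries in red and Ezh2 replicate 3 as an open triangle; bars give the mean ± SD of the GFP libraries and of Ezh2 replicates 1 and 2. *Kdm6a* and *Xist* are lower, and *Uty* and *Ddx3y* higher, in every Ezh2 library than in every GFP library.

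Of the H2A deubiquitinase genes, *Asxl3*, 1 of the alternative partners of Bap1, had 9.78, 9.76 and 10.02 CPM in the GFP libraries and 12.7, 14.9 and 11.4 in the Ezh2 libraries. The groups did not overlap. It rose by 0.50 ± 0.12 in the 5 libraries (edgeR adjusted p = 0.00392) and had a log2 fold change of 0.44 ± 0.13 in the 6, which did not pass the test (adjusted p = 0.0905). Its call rested on Ezh2 replicate 2, without which the adjusted p was 0.153. *Bap1* (0.00 ± 0.06), *Asxl1* (-0.03 ± 0.06) and *Asxl2* (-0.02 ± 0.05) did not differ beyond the spread of the libraries.

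Markers of other cells also moved with the groups, and their part in the changes of *Ezh2*, *Kdm6a*, *Pcgf5* and *Asxl3* was not tested. Beside the Müller glia genes, of which 5 of 6 fell and 1 rose, 11 of 12 T cell, 6 of 8 rod, 6 of 6 cone and 6 of 9 microglia and macrophage markers rose in the 5 libraries. In the 6 libraries 2 Müller glia, 3 T cell, 0 rod, 1 cone and 1 microglia and macrophage markers had an edgeR adjusted p under 0.05 (3 of the rod markers had an unadjusted p under 0.05). By the adjusted value 2 amacrine markers and 1 astrocyte marker also passed with all 6 libraries. *Tfap2b* and *Slc6a9* were lower there (log2 fold change -2.89 and -0.55, edgeR adjusted p = 0.00169 and 0.0208). *Gfap* was higher (0.97, adjusted p = 0.000791). The B and plasma cell, bipolar, and endothelial and mural lists each had 0. T cells of the mouse carry CD90.2 themselves, so the sort does not remove them. The summed T cell level was 512.6 to 547.5 CPM in the GFP libraries, 665.3 to 698.4 in Ezh2 replicates 1 and 2 and 1142 in Ezh2 replicate 3. Müller glia markers were at 11781 CPM in Ezh2 replicate 3, below all other libraries. The summed rod level was 400.6 to 471.2 CPM, 713.1 to 756.1 and 422.8 in the same order of libraries, and the summed microglia and macrophage level was 1339 to 1493, 1726 to 1844 and 1235. Rod markers in Ezh2 replicate 3 were thus within the range of the control group, and microglia and macrophage markers below it, while cone markers lay between the groups at 34.9 CPM (25.8 to 26.5 in the GFP libraries and 52.0 to 60.0 in Ezh2 replicates 1 and 2). Of the astrocyte, amacrine, B and plasma cell, bipolar, and endothelial and mural lists, 1 of 4 rose, 2 of 6 fell, 1 of 6 rose, 0 of 6 and 0 of 7 changed, in that order (edgeR; 2 and 1 of the last pair of lists had an unadjusted p under 0.05).

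Other Polycomb partners, taken from a list of 40 of which 39 were measured, were read from the same fit. At an adjusted p under 0.05, 2 of 39 rose and 4 fell in the 5 libraries, against the 10.1% and 7.68% of all genes given above, and 0 of 39 passed in the 6 (edgeR; 10 had an unadjusted p under 0.05 there). Of these, *Scml4*, a relative of the PRC1-associated *Scm* genes, rose by 0.60 ± 0.17 (4.35, 4.93 and 5.40 CPM against 8.01, 6.74 and 12.8, edgeR adjusted p = 0.0143). *Fbrs*, which is related to *Auts2*, rose by 0.25 ± 0.07. *Auts2*, which joins *Pcgf5* in a variant PRC1, fell by 0.36 ± 0.08, with 48.1, 52.0 and 50.8 CPM in the GFP libraries and 42.9, 34.8 and 37.0 in the Ezh2 libraries (adjusted p = 0.00121). *Scmh1*, another PRC1-associated gene, fell by 0.30 ± 0.08, and *Mbd5*, whose product binds the Bap1 complex, fell by 0.26 ± 0.07.

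Ezh2 replicate 3 had the largest ratios to the other *Ezh2* overexpression libraries in *Phf19*, *Cbx2* and *Aebp2* among the Polycomb genes. This is a single library, and its values are given with no test. *Phf19* was at 15.0 CPM, 4.33 times the mean of Ezh2 replicates 1 and 2, where the other 5 libraries had 3.40, 2.72 and 2.701 (GFP) and 3.82 and 3.08 (Ezh2). *Cbx2*, a CBX reader that compacts chromatin, was at 14.6 CPM, 2.18 times that mean, with 7.62, 6.63, 5.86, 7.05 and 6.31 CPM elsewhere. *Aebp2* was at 198.0 CPM, 2.12 times that mean, with 86.5, 88.1, 89.2, 96.3 and 90.6 elsewhere. With *Eed* (2.06 times) and *Asxl1* (174.1 CPM, 1.56 times, named after its values were seen), 5 of 35 Polycomb genes (14.3%) lay over 1.5-fold above that mean, against 10.2% of all tested genes.

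In the other direction, *Cbx8*, another CBX reader, was at 5.59 CPM, 0.574 times the mean of Ezh2 replicates 1 and 2, with 8.57, 8.75, 8.52, 10.3 and 9.16 elsewhere. It was the single Polycomb gene over 1.5-fold below (2.86%), against 14.6% of all genes. The neighbouring genes *Cbx2* and *Cbx8* thus lay on opposite sides in this library, both on chromosome 11. The next lowest ratios were 0.729 for *Pcgf1* (6.01 CPM, with 9.03, 7.84, 7.48, 8.54 and 7.94 elsewhere) and 0.822 for *Asxl3*. Ezh2 replicate 3 was above all other libraries for 14 of 35 Polycomb genes (40%) and below all for 12 (34.3%), against 24.8% and 38.4% of all tested genes. The median log2 ratio was 0.0033 over the 35 genes and -0.12 over all tested genes, and with TMM-scaled CPM, where the median of all genes was -0.04, 8 genes lay over 1.5-fold above (*Ezh2*, *Suz12* and *Kdm2b* in addition) and 1 below, against 12.1% and 12.6% of all tested genes.

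**Figure D5:**
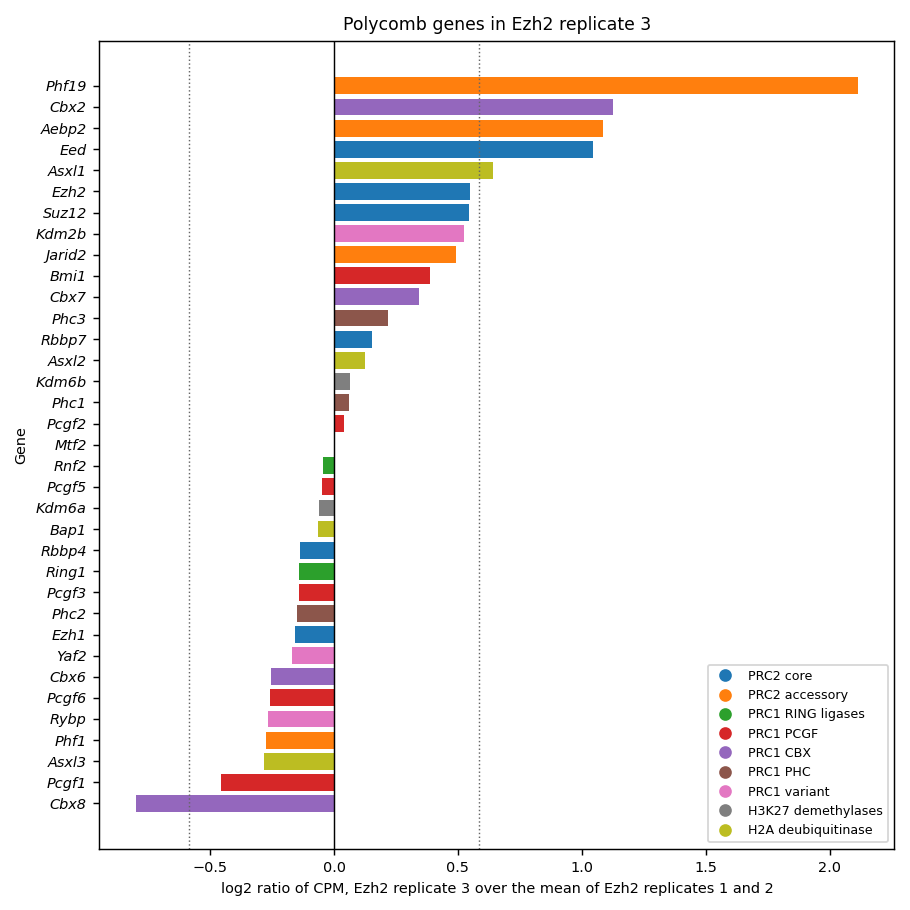
Log2 ratio of CPM in Ezh2 replicate 3 to the mean of Ezh2 replicates 1 and 2 for the 35 Polycomb genes, coloured by role, with dotted lines at 1.5-fold. *Phf19*, *Cbx2*, *Aebp2*, *Eed* and *Asxl1* pass the upper line and *Cbx8* the lower.

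Regulatory T cell genes were also at their highest in this library. The 7 genes of that list summed to 1547 CPM in Ezh2 replicate 3, against 214.7 to 233.8 in the GFP libraries and 225.3 to 265.4 in Ezh2 replicates 1 and 2, and their median log2 ratio to the mean of those replicates was 2.60. Together with the T cell and cell cycle sums given above, these values moved with *Phf19*, *Cbx2*, *Aebp2* and *Eed* in this library, and their part in those levels was not tested.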

How the data were processed

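RNA-Seq libraries of sorted retinal cells (TruSeq Stranded Total RNA) were aligned by the authors with STAR 2.7.0d to GRCm38, per the submitters' processing notes, and the authors deposited whole-number read counts per gene for 6 libraries. The counting program, annotation release and strand setting are not given in the sources used here. Of the 35 genes, 14 share exon positions with an antisense gene and 2 (*Cbx6* and *Kdm2b*) with a gene on the same strand, so that reads could be split or merged there. No per-sample column was left unmatched. Of 55573 identifiers, 55480 matched GENCODE M21, from which coordinates and exon lengths come.

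All genes were fitted together with edgeR 4.0.16 in R 4.3.3 (filterByExpr, TMM, robust glmQLFit, glmQLFTest), with Benjamini-Hochberg adjustment over all 20241 genes tested (5 libraries) or 19732 (6 libraries). SEs are the log2 fold change divided by the square root of F. CPM were computed on the library total, and biological coefficients of variation were 0.0846 (5 libraries) and 0.184 (6). Replicates differed by more than read sampling noise (chi-square per degree of freedom 5.25 to 8.11, and 55.9 and 63.5 for pairs with Ezh2 replicate 3). The members and lists were chosen with earlier results of these data known. Values per library are given for the PRC2 core, for members with an adjusted p under 0.05 in the 5 libraries and for the 3 largest ratios of Ezh2 replicate 3 in either direction. At most 5 partners, those with the largest absolute log2 fold change among those passing, are named with the partner list. The X-linked partners are named beside *Kdm6a*, a choice made after their values were seen. Other settings were the 6 libraries, leaving out each library, a replicate block, DESeq2 1.42.0, its size factors in edgeR, library totals, no filter, and a mean of at least 50 counts. Deviations of same-numbered replicates from their group means had correlations of -0.0127, -0.0104 and -0.00602. The mean of the Ezh2 group includes Ezh2 replicate 3, which stood apart, so that these values cannot show whether the numbers mark pairs. The numbers were not used as pairs in the main fit.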

Additional observations from a re-analysis of the deposited data

Results flagged for a closer look

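Ezh2 replicate 3 was not part of the 5-library comparison. The 4 Polycomb genes with the largest ratios to the highest of the other 5 libraries, controls included, are given here. The ratio to that highest library was 3.92 for *Phf19*, 2.06 for *Aebp2*, 1.98 for *Eed* and 1.91 for *Cbx2*. The next ratio was 1.41, for *Asxl1*. The list follows no stated limit, and the share of all tested genes at such ratios was not counted. Ezh2 replicate 3 was above all other libraries for 40% of the Polycomb genes and 24.8% of all tested genes. It was below all others for 34.3% and 38.4%, in that order. The ratios are values of 1 library with no replicate of their own.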

How the results depend on the processing

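The counts of Polycomb genes that passed (1 with the fold limit, 4 without it) and of partners (6) did not move with DESeq2, DESeq2 size factors, library totals, no filter or a mean of at least 50 counts. With all 6 libraries, 1 Polycomb gene and 0 partners had an adjusted p under 0.05, and the median log2 fold change of the 35 genes was 0.056. Log2 fold changes that then changed sign were 0.20 for *Suz12*, 0.061 for *Rbbp7*, 0.16 for *Jarid2*, 0.064 for *Bmi1*, -0.081 for *Pcgf1*, 0.098 for *Cbx7*, -0.014 for *Cbx8*, 0.047 for *Kdm6b*, 0.25 for *Asxl1* and 0.056 for *Asxl2*, none past the test in either fit. With library totals the values were -0.0061 for *Cbx2* and -0.0078 for *Bap1*, and with a mean of at least 50 counts -0.0011 and -0.0024. With the longest transcript the *Ezh2* share was 34.0% in the control group and 54.3% in Ezh2 replicates 1 and 2. The replicate block in the 5 libraries left 4 Polycomb genes and 3 partners with an adjusted p under 0.05, and gave -0.021 for *Pcgf1*, -0.082 for *Cbx2*, 0.10 for *Kdm6b*, -0.0055 for *Bap1*, 0.021 for *Asxl1* and 0.018 for *Asxl2*. The replicate block in the 6 libraries gave 1 Polycomb gene, 0 partners, a median of 0.051 and 0.16 for *Suz12*, 0.057 for *Rbbp7*, 0.13 for *Jarid2*, 0.048 for *Bmi1*, -0.086 for *Pcgf1*, 0.085 for *Cbx7*, -0.049 for *Cbx8*, 0.051 for *Kdm6b*, 0.21 for *Asxl1* and 0.053 for *Asxl2*. Whether the replicate numbers pair the libraries is not known. The deviations of same-numbered libraries cannot show it, as they were taken from group means that include Ezh2 replicate 3. Over the fits that left out 1 library of the 5 or of the 6, 0 to 2 Polycomb genes passed with the fold limit and 0 to 4 without it, 0 to 6 partners passed, the median ran from -0.044 to 0.072, and *Ezh2* from 1.05 to 1.56. The 2 came without Ezh2 replicate 1, where *Asxl3* also passed 1.5-fold, and the 0 without GFP replicate 1, 2 or 3 of the 6, where the edgeR adjusted p of *Ezh2* was 0.0793, 0.0616 and 0.0877. Where 1 Ezh2 library of the 5 remained, it was assumed to vary like the GFP libraries. Log2 fold changes that changed sign in any of these fits ran from -0.085 to 0.75 for *Cbx2*, -0.015 to 0.037 for *Bap1*, -0.17 to 0.11 for *Pcgf1*, -0.11 to 0.16 for *Kdm6b*, -0.084 to 0.39 for *Asxl1*, -0.036 to 0.092 for *Asxl2*, -0.068 to 0.027 for *Mtf2*, -0.075 to 0.12 for *Rbbp7*, -0.11 to 0.33 for *Suz12*, -0.20 to 0.050 for *Ring1*, -0.00077 to 0.16 for *Rnf2*, -0.14 to 0.0037 for *Pcgf3*, -0.15 to 0.0025 for *Cbx6*, -0.092 to 0.27 for *Jarid2*, -0.18 to 0.17 for *Bmi1*, -0.12 to 0.20 for *Cbx7*, -0.17 to 0.26 for *Cbx8*, -0.13 to 0.051 for *Phc3* and -0.23 to 0.013 for *Phc1*. The cause of these shifts was not tested. Depth limits *Phf19* most, whose lowest library had 83 counts.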
